A study of Homo sapiens with 24 samples.

Results

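The response of ACLY-depleted HCT116 cells to 5 mM butyrate was measured on 6 expression arrays, 3 of cells transfected with siACL and given 5 mM butyrate and 3 of cells transfected with siACL and left untreated. These 6 arrays were chosen by their labels out of 24, and every entry with a gene symbol was used, 18172 of the 20747 entries in the deposited table. The whole study crossed 2 transfections, siACL and the control siMock, with butyrate at 0, 0.5, 2 and 5 mM, with 3 arrays per group. The 4 groups that matter most here are siACL with 5 mM butyrate, siACL untreated, siMock with 5 mM butyrate and siMock untreated. All cells grew in DMEM with glucose, butyrate was given for 3 days, and the labels describe the 3 replicates of a group as biological. All groups share the same carcinoma line and a transfection, the depletion was transient, and the sources used here do not name the small interfering RNA sequences. The comparison addresses what a high dose of butyrate does to transcripts when ATP citrate lyase is reduced.

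Butyrate is a short-chain fatty acid that gut bacteria make from fibre. Normal colonocytes oxidise it in their mitochondria, and part of its carbon can leave as citrate, which ATP citrate lyase, encoded by ACLY, cleaves in the cytosol and nucleus into acetyl-CoA for lipid synthesis and histone acetylation. Butyrate that is not oxidised inhibits class I and II histone deacetylases, and in colon cancer lines it is known to slow the cell cycle and to induce metallothioneins and silent tissue-specific genes. HCT116 is a human colorectal carcinoma cell line that relies heavily on glucose.

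The deposited values are normal scores, that is, normal quantiles of each gene's rank on its own array. The middle gene of an array has a score of 0, the scores ran from -3.90 to 3.90, and no fold change can be given. All arrays share nearly the same set of values, so genes cannot rise without other genes falling, and counts of rises and falls are balanced in part by the scale. A difference is the mean score of the 3 arrays of the group named first minus that of the 3 arrays it is set against, ± its standard error from limma fitted to all 24 arrays. Group means are given ± SD over their 3 arrays. The words rose and fell are used of genes that passed an adjusted p of 0.05, by the Benjamini-Hochberg method over 18172 genes. Weakly expressed genes were measured less precisely: the median residual SD was 0.416 in the class of genes with the lowest mean scores and 0.0333 in the class with the highest, and 15.3% and 71.1% of the genes in these classes changed. Lists of strongly expressed genes therefore hold more calls than the array as a whole. Arrays of the same group correlated at r = 0.937 to 0.942 in siACL at 5 mM and 0.952 to 0.955 in untreated siACL, and no array of these groups stood apart in these correlations. Genes carry the name in the array's annotation, followed in parentheses by the current symbol where that has changed.

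ACLY, the target of the knockdown, was checked first. Its scores were 0.68, 0.70 and 0.67 in siACL at 5 mM, against 1.17, 1.21 and 1.17 in untreated siACL, and the groups did not overlap. ACLY fell by 0.50 ± 0.022 with 5 mM butyrate (adjusted p = 5.3e-12), to percentile 75.3 of the array in siACL at 5 mM, against percentile 88.2 in untreated siACL. Untreated siACL arrays themselves lay below untreated siMock arrays (1.19 ± 0.02 against 1.52 ± 0.02, difference -0.34 ± 0.022, adjusted p = 6.3e-08), so the transcript was reduced and not absent. In siMock the change at 5 mM was -0.21 ± 0.022, and subtracting it from the siACL change left -0.29 ± 0.031 (adjusted p = 1.3e-05). At the lower doses siACL arrays scored 1.11 ± 0.015 at 0.5 mM and 0.95 ± 0.0075 at 2 mM.

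Over all genes, 8222 of 18172, or 45.2%, changed in siACL at 5 mM. Of these 4123 rose (22.7% of genes tested) and 4099 fell (22.6%), and 8055 of the 8222 had arrays that did not overlap between the groups, as did 10135 genes in all. The median size of a rise was 0.26 and of a fall -0.24 on the score scale. Differences of at least 1 were more often rises (443 genes) than falls (225 genes). The median difference over all genes was -0.016, which is the level to read the list medians against. Of the genes named below, BOP1, CDH13, COX4I1, COX7C, CST3, H2AFZ, ORC6L and VWF did not pass when percentile ranks replaced the scores. XIAP did not pass in a fit of only those 6 arrays, and ATG7, CD63, FAS, HDAC7, LYZ, PDIA4, PDK4, PPARGC1A and PRTFDC1 did not pass when 1 of the 6 arrays was left out.

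**Figure D1:**
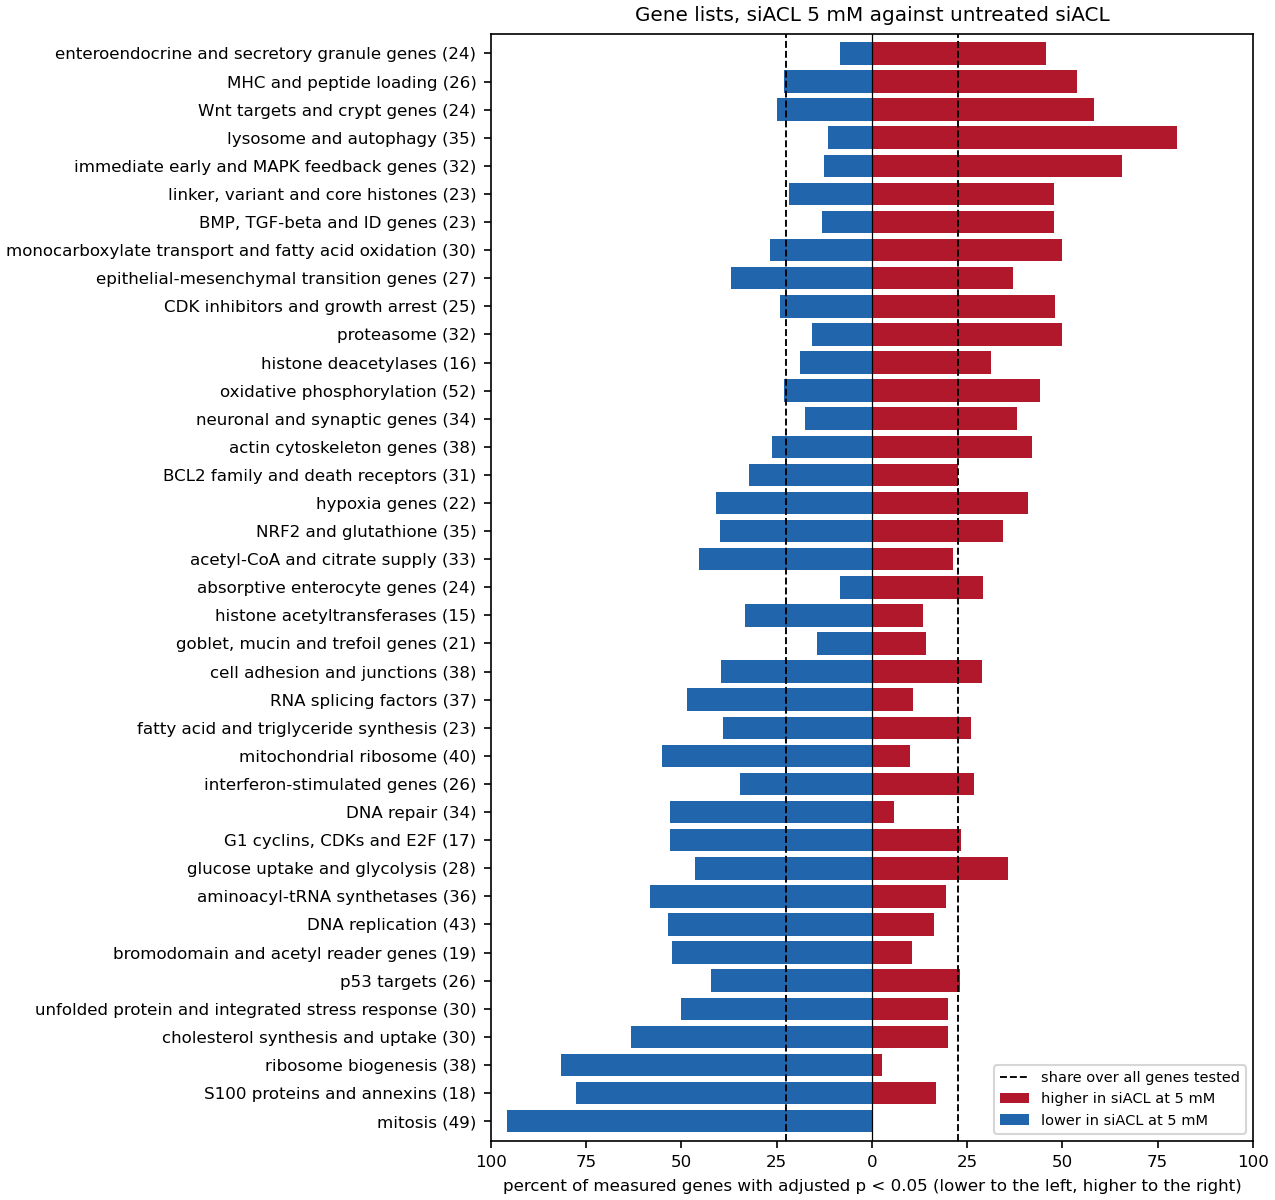
Percent of the measured genes of each list that were higher (red, to the right) or lower (blue, to the left) in siACL at 5 mM than in untreated siACL, ordered by the list's median difference, with the number measured in parentheses; lists with fewer than 15 measured genes are left out. Dashed lines mark the shares over all genes tested, 22.7% and 22.6%; mitosis genes are at the bottom with 95.9% lower, and lysosome and autophagy genes reach 80% higher.

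The genes with the largest rises lay near the bottom of the array in untreated siACL and near or above its middle with butyrate. CST1, which encodes the secreted protease inhibitor cystatin SN, had scores of 0.38, 0.46 and 0.37 in siACL at 5 mM, against -3.55, -3.49 and -3.36 in untreated siACL, a difference of 3.87 ± 0.14 (adjusted p = 5.4e-13). DKK4, a secreted Wnt antagonist, scored 0.01, 0.072 and 0.0046 in siACL at 5 mM, against -3.62, -3.62 and -3.62 in untreated siACL (3.65 ± 0.27, adjusted p = 4.1e-09). PAGE4, a cancer-testis gene of the GAGE family, scored 0.70, 0.72 and 0.70 in siACL at 5 mM, against -2.58, -2.88 and -2.68 in untreated siACL (3.42 ± 0.22). In these genes the treated arrays lay close together at or above the middle of the array, while all untreated arrays lay in its lowest percent. SCGB2A1, a secretoglobin gene, scored 0.0033, -0.041 and 0.075 in siACL at 5 mM, against -3.44, -2.98 and -3.73 in untreated siACL (3.40 ± 0.22). GRP, which encodes gastrin-releasing peptide, scored 0.62, 0.59 and 0.62 in siACL at 5 mM, against -2.68, -2.71 and -2.82 in untreated siACL (3.35 ± 0.16). CLDN1, a tight junction claudin, scored -0.32, -0.49 and -0.40 in siACL at 5 mM, against -3.73, -3.73 and -3.44 in untreated siACL (3.23 ± 0.27). HLA-DPA1, an MHC class II chain, scored 0.38, 0.44 and 0.35 in siACL at 5 mM, against -2.75, -3.02 and -2.60 in untreated siACL (3.18 ± 0.12). The other rises of this size were in the teneurin gene ODZ3 (TENM3, 3.36 ± 0.18), the scaffold gene IQGAP2 (3.18 ± 0.21) and HEY2, a Notch-responsive repressor (3.06 ± 0.29). Whether genes at such low scores were above background in untreated cells is unknown, since no detection values were used here.

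The largest falls ran the other way, with scores near the middle of the array in untreated siACL and near its bottom with butyrate. SLC7A11, the cystine importer of system xc-, scored -3.90, -3.73 and -3.62 in siACL at 5 mM, against -0.43, -0.58 and -0.56 in untreated siACL, the largest fall of the comparison (-3.23 ± 0.25, adjusted p = 7e-09). SLCO1B3, an organic anion transporter, scored -3.44, -2.65 and -3.13 in siACL at 5 mM, against -0.081, -0.07 and -0.23 in untreated siACL (-2.95 ± 0.29). GCNT3, a glycosyltransferase that branches mucin-type glycans, scored -2.60, -1.92 and -2.93 in siACL at 5 mM, against 0.21, 0.25 and 0.24 in untreated siACL (-2.72 ± 0.27, adjusted p = 1.5e-07). Treated arrays of these genes were more scattered than the untreated ones. That none overlapped them was required by the ranking. ZBED2, a zinc finger gene, scored -1.37, -2.19 and -2.02 in siACL at 5 mM, against 0.71, 0.64 and 0.66 in untreated siACL (-2.53 ± 0.28). GPR110 (ADGRF1), an adhesion G protein-coupled receptor, scored -1.42, -1.95 and -2.10 in siACL at 5 mM, against 0.51, 0.51 and 0.48 in untreated siACL (-2.32 ± 0.12). The gliomedin gene GLDN (-2.72 ± 0.24), TMEM184A (-2.46 ± 0.35), FAM83B (-2.40 ± 0.27), the mitochondrial oxodicarboxylate carrier SLC25A21 (-2.39 ± 0.34) and SRPX2 (-2.30 ± 0.32) completed the group.

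**Figure D2:**
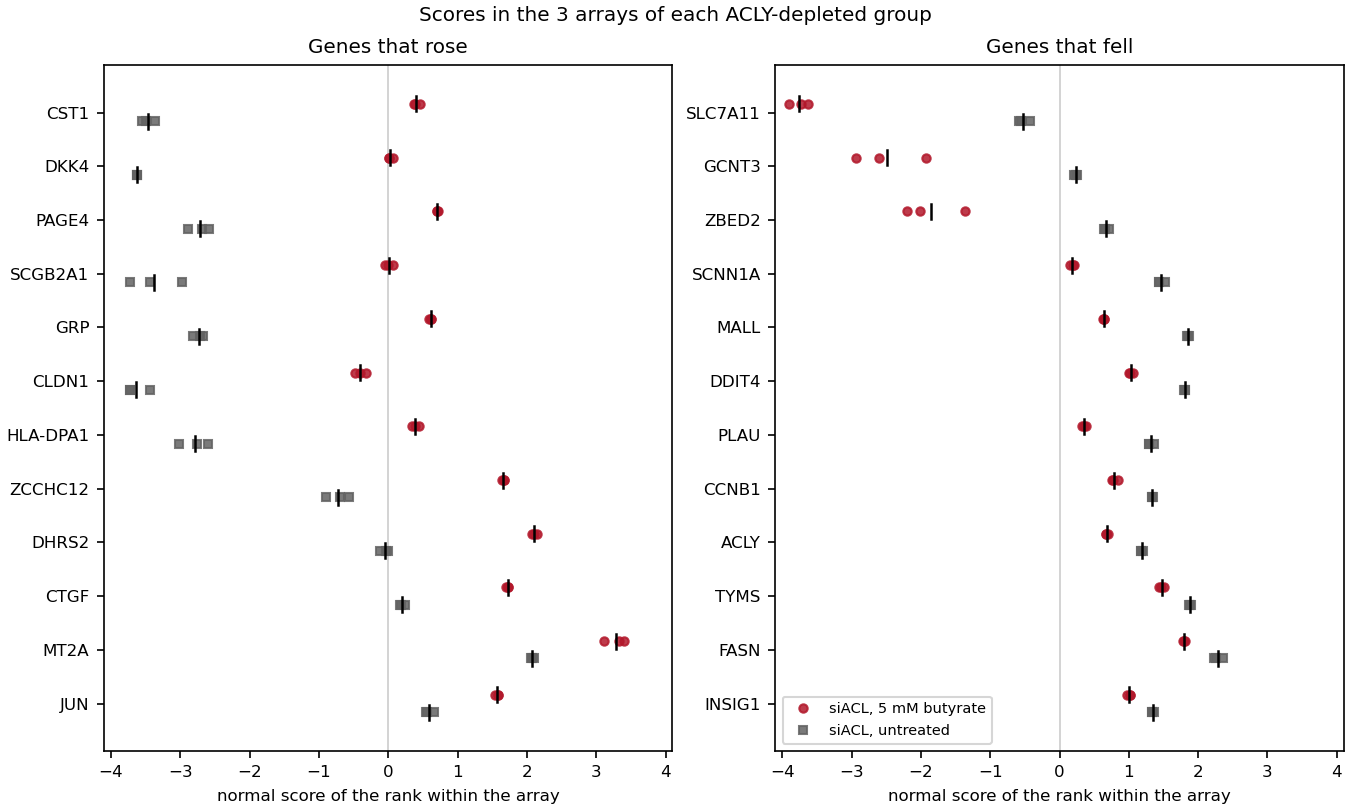
Normal scores of 24 genes in the 3 arrays of siACL at 5 mM (red circles, upper row of each gene) and of untreated siACL (grey squares, lower row), with black bars at the group means. Genes on the left rose and genes on the right fell. CST1 lies between 0.37 and 0.46 with butyrate and SLC7A11 between -3.90 and -3.62. In none of the 24 genes do the groups overlap, which the ranking of the largest changes required of those it supplied.

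Strongly expressed genes, where scores were precise, were taken as those with a mean score above 0.5 over all arrays, butyrate arrays included. Among them the largest rises went into the top of the array. The filter favours this by construction, because high scores with butyrate let in genes that were not high when untreated. ZCCHC12 and DHRS2 lay below or near the middle of the array in untreated siACL. ZCCHC12, a zinc knuckle coactivator gene, scored 1.67, 1.67 and 1.64 in siACL at 5 mM, against -0.69, -0.89 and -0.57 in untreated siACL (2.38 ± 0.052, adjusted p = 8.5e-16). DHRS2, a short-chain dehydrogenase gene known to be induced by butyrate in human hepatoma cells, scored 2.08, 2.15 and 2.10 in siACL at 5 mM, against -0.11, -0.035 and 0.0039 in untreated siACL (2.16 ± 0.032, adjusted p = 5.4e-18). VGF, a neurosecretory granule protein, scored 2.70, 2.55 and 2.53 in siACL at 5 mM, against 0.93, 0.88 and 0.83 in untreated siACL (1.72 ± 0.045). DHRS2 thus lay at percentile 98.2 of the array in siACL at 5 mM, against percentile 48.1 in untreated siACL, and VGF reached percentile 99.5. The matricellular genes CTGF (CCN2, 1.52 ± 0.028) and CYR61 (CCN1, 1.18 ± 0.03), both targets of the YAP pathway, rose together with NOTUM, a secreted Wnt deacylase (1.46 ± 0.054), SLC2A3, the glucose transporter GLUT3 (1.26 ± 0.032), and CRISPLD2 (1.11 ± 0.034). Falls within this class were smaller, and the same filter limits in part how far its genes can fall. SCNN1A, the alpha subunit of the epithelial sodium channel, scored 0.15, 0.20 and 0.20 in siACL at 5 mM, against 1.44, 1.44 and 1.52 in untreated siACL (-1.28 ± 0.12). MALL, a raft protein of the MAL family, scored 0.64, 0.64 and 0.63 in siACL at 5 mM, against 1.85, 1.87 and 1.84 in untreated siACL (-1.22 ± 0.026, adjusted p = 7e-16). The chloride channel ANO1, measured by 2 entries, fell in both, listed as ANO1 (-0.89 ± 0.042) and under its older name TMEM16A (-0.85 ± 0.035). EMP1 (-1.26 ± 0.18), the urokinase gene PLAU (-0.96 ± 0.03), NSMAF (-0.95 ± 0.045), ANXA3 (-0.91 ± 0.034), the neurotensin receptor NTSR1 (-0.86 ± 0.028) and HS3ST1, a heparan sulphate sulphotransferase (-0.85 ± 0.048), fell as well.

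Genes of mitosis fell almost as a whole. Of 49 measured genes 47 fell, with a median difference of -0.29. The mean score of the list was 0.81, 0.80 and 0.79 in the siACL arrays at 5 mM, against 1.12, 1.11 and 1.12 in the untreated siACL arrays. In bulk RNA, fewer cells in mitosis and less transcript per mitotic cell cannot be told apart. CCNB1, cyclin B1, the partner of the mitotic kinase CDK1, scored 0.84, 0.77 and 0.76 in siACL at 5 mM, against 1.34, 1.33 and 1.33 in untreated siACL (-0.55 ± 0.044, adjusted p = 1.2e-08). HMMR, a spindle-associated hyaluronan receptor, scored 0.85, 0.81 and 0.78 in siACL at 5 mM, against 1.38, 1.37 and 1.39 in untreated siACL (-0.57 ± 0.024, adjusted p = 3.4e-12). CCNA2, cyclin A2, scored 0.95, 1.08 and 0.89 in siACL at 5 mM, against 1.52, 1.56 and 1.52 in untreated siACL (-0.56 ± 0.039). All treated arrays lay below all untreated arrays for these cyclins and for HMMR. KIF20A, a kinesin of cytokinesis, had a difference of -0.55 ± 0.033. PLK1, the polo kinase that drives mitotic entry, scored -0.086, -0.37 and -0.34 in siACL at 5 mM, against 0.34, 0.35 and 0.27 in untreated siACL and was less precise (-0.58 ± 0.16, adjusted p = 0.0051). The pair of genes that did not pass, named here after their values were seen, were the checkpoint gene BUB3 (-0.026, adjusted p = 0.27) and the kinetochore gene SPC24 (0.091, adjusted p = 0.082).

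The cell cycle homology region, or CHR, written TTTGAA, is the element through which the DREAM and MuvB complexes control many mitotic genes, and it was searched on both strands in RefSeq promoter windows (GRCh38.p14, 250 bases before to 50 after the start). It was present in 65% of the 40 mitosis promoters that could be matched, against 10.5% of the 10112 promoters of genes tested. The CCAAT box, often found next to it, was present in 75% of the mitosis promoters and 36.9% of all. The 250 bases before the start of PLK1 and HMMR are given because both genes fell and hold the element close to the start, with matches to TTTGAA in capitals. The match nearest to the start begins 29 bases before it in PLK1 and 22 bases before it in HMMR, where 2 matches follow each other.
PLK1 (chr16:23678639-23678888, plus strand): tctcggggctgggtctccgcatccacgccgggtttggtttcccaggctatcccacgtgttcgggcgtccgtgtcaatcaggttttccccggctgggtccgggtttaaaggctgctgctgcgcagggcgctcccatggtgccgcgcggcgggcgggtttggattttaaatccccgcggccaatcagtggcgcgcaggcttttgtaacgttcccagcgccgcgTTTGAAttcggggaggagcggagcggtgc
HMMR (chr5:163460382-163460631, plus strand): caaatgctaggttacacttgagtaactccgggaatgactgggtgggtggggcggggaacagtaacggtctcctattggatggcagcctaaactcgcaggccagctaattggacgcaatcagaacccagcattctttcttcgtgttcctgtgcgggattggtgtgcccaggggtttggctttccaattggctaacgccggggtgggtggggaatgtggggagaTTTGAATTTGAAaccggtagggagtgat
CCNB1, CCNA2 and KIF20A hold no match to these letters in the same 250 bases.

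DNA replication genes fell less uniformly. Of 43 measured genes 23 fell and 7 rose (median difference -0.11), and the list's mean score was 0.87, 0.91 and 0.90 in siACL at 5 mM, against 1.01, 1.00 and 0.97 in untreated siACL. TYMS, thymidylate synthase, scored 1.47, 1.51 and 1.44 in siACL at 5 mM, against 1.89, 1.89 and 1.87 in untreated siACL (-0.41 ± 0.026, adjusted p = 6.7e-10). MCM2, a subunit of the replicative helicase, scored 0.79, 0.90 and 0.80 in siACL at 5 mM, against 1.21, 1.18 and 1.18 in untreated siACL (-0.36 ± 0.03). DUT, the dUTPase (-0.35 ± 0.038), and POLE2 of DNA polymerase epsilon (-0.34 ± 0.034) fell by similar amounts. In the opposite direction, RRM2, the regulatory subunit of ribonucleotide reductase, scored 1.00, 1.04 and 1.03 in siACL at 5 mM, against 0.75, 0.85 and 0.81 in untreated siACL and rose (0.22 ± 0.047, adjusted p = 0.00085). GINS4 (0.42 ± 0.10), ORC6L (ORC6, 0.23 ± 0.033) and RPA3 (0.20 ± 0.028) also rose. An E2F-like motif, TTTNNCGC on either strand, was present in 54.1% of the 37 matched replication promoters, against 10.3% of all 10112. The 250 bases before the start of TYMS and POLE2 are shown because both fell and hold a match, in capitals.
TYMS (chr18:657403-657652, plus strand): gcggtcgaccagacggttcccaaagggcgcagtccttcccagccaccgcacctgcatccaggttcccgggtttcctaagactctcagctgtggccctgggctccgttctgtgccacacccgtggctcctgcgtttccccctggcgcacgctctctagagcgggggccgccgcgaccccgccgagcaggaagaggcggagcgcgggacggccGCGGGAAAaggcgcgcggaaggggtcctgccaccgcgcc
POLE2 (chr14:49688215-49688464, minus strand): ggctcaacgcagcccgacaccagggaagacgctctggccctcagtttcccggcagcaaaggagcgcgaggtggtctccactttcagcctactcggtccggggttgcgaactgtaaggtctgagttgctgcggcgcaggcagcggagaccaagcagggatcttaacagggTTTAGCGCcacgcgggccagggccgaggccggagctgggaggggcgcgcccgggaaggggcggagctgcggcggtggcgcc
MCM2, DUT and RRM2 hold no match in the same 250 bases.

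Regulators of the G1 phase moved in both directions. In this list 4 of 17 measured genes rose and 9 fell (median difference -0.10). CCND3 (0.47 ± 0.024), CDK6 (0.41 ± 0.034) and CCND1, cyclin D1 (0.26 ± 0.024), rose, while CDK4 (-0.37 ± 0.022), the CDK subunit CKS1B (-0.38 ± 0.02), E2F5 (-0.45 ± 0.059) and the ubiquitin ligase subunit SKP2 (-0.15 ± 0.027) fell. In the CDK inhibitor and growth arrest list 12 of 25 measured genes rose and 6 fell (median difference 0.067). CDKN1A, which encodes p21, was already near the top of the array and moved little, scoring 1.82, 1.81 and 1.81 in siACL at 5 mM, against 1.68, 1.73 and 1.70 in untreated siACL (0.11 ± 0.024, adjusted p = 0.00089). CDKN1C, p57, rose by 0.34 ± 0.043 and the MYC antagonist MXD4 by 0.35 ± 0.032. CDKN2A, which encodes p16 and ARF, scored -0.33, -0.46 and -0.51 in siACL at 5 mM, against 0.29, 0.27 and 0.29 in untreated siACL and fell (-0.72 ± 0.10), as did CDKN1B, p27 (-0.28 ± 0.04). DNA repair genes mostly fell: 2 of 34 measured genes rose and 18 fell (median difference -0.092). FANCG (-0.45 ± 0.029), the uracil glycosylase UNG (-0.41 ± 0.032) and the checkpoint kinase CHEK1 (-0.39 ± 0.033) were among them, and XRCC2 rose (0.26 ± 0.076).

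In the p53 target list 6 of 26 measured genes rose and 11 fell (median difference -0.12). These are 23.1% and 42.3%, where 22.7% and 22.6% of all genes rose and fell. SFN, the 14-3-3 sigma gene, fell by 0.48 ± 0.031 while MDM2 did not pass (0.13 ± 0.19, adjusted p = 0.62). In the BCL2 family and death receptor list 7 of 31 measured genes rose and 10 fell (median difference 0.018). That is 22.6% and 32.3%, against the same shares of all genes. CYCS, cytochrome c, scored 0.37, 0.37 and 0.33 in siACL at 5 mM, against -0.0075, -0.19 and -0.11 in untreated siACL (0.46 ± 0.077), and DIABLO, an antagonist of inhibitor of apoptosis proteins, rose by 0.31 ± 0.02. The caspase inhibitor XIAP (-1.08 ± 0.23), the caspase-8 regulator CFLAR (-0.64 ± 0.075), the death receptor FAS (-0.86 ± 0.24) and the pro-apoptotic BID (-0.45 ± 0.04) fell. Promoters of apoptosis were therefore on both sides. BCL2L1 did not pass (-0.055 ± 0.025, adjusted p = 0.08).

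Ribosome biogenesis genes fell widely, 31 of 38, while 1, BOP1, rose (median difference -0.21). The list's mean score was 0.95, 0.94 and 0.94 in siACL at 5 mM, against 1.17, 1.17 and 1.16 in untreated siACL, a gap wider than the spread between replicates. PPRC1, a coactivator of growth and mitochondrial genes, scored 0.91, 0.85 and 0.86 in siACL at 5 mM, against 1.35, 1.43 and 1.42 in untreated siACL (-0.52 ± 0.03, adjusted p = 1.5e-10). NIP7 (-0.44 ± 0.028) and WDR12 (-0.41 ± 0.019), both needed to process the large subunit, and nucleolin, NCL (-0.19 ± 0.022), fell as well. Aminoacyl-tRNA synthetases, which charge tRNAs, showed 7 rises and 21 falls among 36, with YARS (YARS1, -0.48 ± 0.019) and IARS (IARS1, -0.40 ± 0.028) lower and RARS (RARS1, 0.25 ± 0.022) higher. In the mitochondrial ribosome list 4 of 40 measured genes rose and 22 fell (median difference -0.085), led by MRPL11 (-0.48 ± 0.019). In the splicing factor list 4 of 37 measured genes rose and 18 fell (median difference -0.07), for example HNRNPA2B1 (-0.39 ± 0.03, and -0.19 in its other entry, HNRPA2B1).

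Respiratory chain and proteasome genes rose more often than they fell. In these lists 44.2% and 50% rose and 23.1% and 15.6% fell, where 22.7% and 22.6% of all genes did. Both lists lie high in the array. In them 67.3% and 65.6% of genes changed, where 71.1% of the class with the highest mean scores did. In the oxidative phosphorylation list 23 of 52 measured genes rose and 12 fell (median difference 0.051), and 15 rose and 10 fell on percentile ranks. The cytochrome c oxidase subunits COX6C (0.32 ± 0.038), COX7C (0.25 ± 0.038) and COX4I1 (0.22 ± 0.029) rose, as did PPARGC1A, the coactivator of mitochondrial biogenesis (0.79 ± 0.23). NDUFB8 of complex I (-0.20 ± 0.019) and CYC1 of complex III (-0.20 ± 0.023) fell. Proteasome genes counted 16 rises and 5 falls among 32 (median difference 0.067), and 10 rises and 5 falls on percentile ranks, with PSMA2 (0.46 ± 0.031), PSMD3 (0.36 ± 0.045) and PSMB1 (0.33 ± 0.044) higher and PSMD11 lower (-0.29 ± 0.045).

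Deacetylase genes, those of classes I, II and IV and the sirtuins together, moved in both directions: 5 of 16 measured genes rose and 3 fell (median difference 0.062). These are 31.2% and 18.8%, where 22.7% and 22.6% of all genes rose and fell. HDAC1, of class I, scored 2.01, 2.05 and 2.05 in siACL at 5 mM, against 1.89, 1.93 and 1.93 in untreated siACL (0.12 ± 0.021, adjusted p = 0.0001), and HDAC3 rose by 0.21 ± 0.035. The widest change was that of SIRT4, a mitochondrial sirtuin, which scored 0.41, 0.43 and 0.44 in siACL at 5 mM, against -0.90, -1.17 and -0.77 in untreated siACL (1.37 ± 0.12). HDAC7, of class II, fell (-0.60 ± 0.19). Acetyltransferase genes counted 2 rises and 5 falls among 15, or 13.3% and 33.3%. CREBBP (-0.24 ± 0.033) and MYST1 (KAT8, -0.32 ± 0.043) fell, and EP300 did not pass (-0.056 ± 0.11, adjusted p = 0.74). In the list of bromodomain and other acetyl reader genes 2 of 19 measured genes rose and 10 fell (median difference -0.11), with BAZ1A (-0.32 ± 0.033) lower and the SWI/SNF ATPase gene SMARCA2 (0.32 ± 0.037) higher.

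Among genes that supply acetyl-CoA and citrate 7 of 33 measured genes rose (21.2%) and 15 fell (45.5%), where 22.7% and 22.6% of all genes did. The median difference of -0.02 lay near that of all genes, -0.016, and 16 of the 33 had a difference above 0. ACSS2, the acetyl-CoA synthetase that makes acetyl-CoA from acetate without ACLY, scored 0.71, 0.74 and 0.75 in siACL at 5 mM, against 1.05, 1.11 and 1.09 in untreated siACL and fell (-0.35 ± 0.021, adjusted p = 2.6e-10). SLC25A1, the mitochondrial citrate carrier, fell by 0.14 ± 0.028. DLAT, the E2 subunit of pyruvate dehydrogenase, scored 0.59, 0.58 and 0.54 in siACL at 5 mM, against 0.98, 0.92 and 0.95 in untreated siACL (-0.38 ± 0.025). PDK3 (0.31 ± 0.04) and PDK4 (0.69 ± 0.24), kinases that switch that complex off, rose. IDH2 (0.18 ± 0.035) and MDH1 (0.16 ± 0.022) rose too.

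Histone genes, a list of linker, variant and clustered core histones, rose more often than they fell: 11 of 23 measured genes rose and 5 fell (median difference 0.17). HIST1H2BD (H2BC5), a core histone gene, scored 1.34, 1.35 and 1.33 in siACL at 5 mM, against 0.76, 0.69 and 0.74 in untreated siACL (0.61 ± 0.02, adjusted p = 2.1e-13) and HIST1H1C (H1-2) rose by 0.38 ± 0.036. HIST1H4H (H4C8) lay near the bottom of the untreated arrays, scoring -0.30, -0.10 and -0.26 in siACL at 5 mM, against -2.84, -2.19 and -3.23 in untreated siACL (2.53 ± 0.27). The macroH2A gene H2AFY2 (MACROH2A2, -0.78 ± 0.025), the centromeric histone CENPA (-0.35 ± 0.032) and H2AFZ (H2AZ1, -0.26 ± 0.036) fell. Histone, HLA and metallothionein genes have near-identical copies, so which copy an entry measured is uncertain.

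Metallothionein genes and the zinc exporter SLC30A1 rose without exception, 8 of 8 measured (median difference 1.07). Metallothioneins are small cysteine-rich proteins that bind zinc and copper, and the transcription factor MTF1 induces them and SLC30A1 through metal response elements. The list's mean score was 1.92, 1.98 and 1.97 in siACL at 5 mM, against 1.03, 0.98 and 0.93 in untreated siACL. MT2A, already in the top of the untreated arrays, scored 3.12, 3.33 and 3.40 in siACL at 5 mM, against 2.08, 2.06 and 2.10 in untreated siACL (1.20 ± 0.089, adjusted p = 4.6e-09). MT1X scored 2.51, 2.60 and 2.55 in siACL at 5 mM, against 1.42, 1.40 and 1.44 in untreated siACL (1.14 ± 0.028, adjusted p = 6.1e-15), and MT1F 1.67, 1.72 and 1.71 in siACL at 5 mM, against 0.60, 0.62 and 0.62 in untreated siACL (1.08 ± 0.023). MT1H, the member with the lowest untreated level, scored 0.52, 0.52 and 0.51 in siACL at 5 mM, against -0.62, -0.96 and -1.46 in untreated siACL (1.53 ± 0.24). The remaining members were MT1A (1.07 ± 0.092), MT1E (0.49 ± 0.033), MT1G (0.91 ± 0.028) and SLC30A1 (0.39 ± 0.024).

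The promoters of MT2A and MT1X are shown because both genes rose strongly from a high level. Matches to the metal response element core TGCNCNC on either strand are in capitals, 7 in MT2A and 4 in MT1X. The core is short: it was found in all 4 matched promoters of this list, but also in 62.8% of the 10112 promoters of genes tested.
MT2A (chr16:56608334-56608583, plus strand): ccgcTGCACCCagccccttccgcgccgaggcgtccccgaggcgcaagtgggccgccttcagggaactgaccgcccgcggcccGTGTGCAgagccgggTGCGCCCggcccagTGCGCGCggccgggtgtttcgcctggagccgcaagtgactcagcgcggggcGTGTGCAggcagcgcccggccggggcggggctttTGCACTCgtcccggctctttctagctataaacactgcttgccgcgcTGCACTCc
MT1X (chr16:56682220-56682469, plus strand): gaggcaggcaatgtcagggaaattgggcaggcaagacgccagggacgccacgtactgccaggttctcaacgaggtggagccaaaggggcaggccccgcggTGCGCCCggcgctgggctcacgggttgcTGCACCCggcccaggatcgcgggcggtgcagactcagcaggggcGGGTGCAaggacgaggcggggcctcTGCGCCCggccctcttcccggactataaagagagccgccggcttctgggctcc

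Lysosome and autophagy genes rose broadly, 28 of 35 with 4 falls (median difference 0.21). The list's mean score was 1.15, 1.16 and 1.14 in siACL at 5 mM, against 0.94, 0.96 and 0.95 in untreated siACL. NEU1, lysosomal sialidase, scored 1.27, 1.18 and 1.28 in siACL at 5 mM, against 0.58, 0.65 and 0.55 in untreated siACL (0.65 ± 0.034, adjusted p = 6.1e-11). MAP1LC3B, which encodes the autophagosome protein LC3B, scored 1.50, 1.45 and 1.54 in siACL at 5 mM, against 1.02, 0.98 and 0.95 in untreated siACL (0.51 ± 0.03). Cathepsin B, CTSB (0.47 ± 0.045), the proton pump subunit ATP6V0D1 (0.43 ± 0.041) and LAMP1 (0.21 ± 0.025) rose, while the genes that fell were CTSZ (-0.26 ± 0.05), the autophagy initiator BECN1 (-0.17 ± 0.029), ATG7 (-0.10 ± 0.031) and CD63 (-0.10 ± 0.038). In the NRF2 and glutathione list 12 of 35 measured genes rose and 14 fell (median difference -0.012). The aldo-keto reductase AKR1C3 scored 1.02, 1.05 and 1.14 in siACL at 5 mM, against -0.80, -0.63 and -0.68 in untreated siACL (1.77 ± 0.14). Glutathione transferases GSTA4 (1.49 ± 0.12) and GSTA1 (1.63 ± 0.20) rose. The export pumps ABCC2 (-0.94 ± 0.16) and ABCC3 (-0.74 ± 0.041) and the quinone reductase NQO1 (-0.39 ± 0.019) fell.

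Lipid synthesis draws on the acetyl-CoA that ACLY makes. Of the cholesterol synthesis and uptake genes 6 rose and 19 fell among 30 (median difference -0.18). ACAT2, which condenses cytosolic acetyl-CoA at the head of the pathway, scored 0.66, 0.63 and 0.63 in siACL at 5 mM, against 1.14, 1.17 and 1.14 in untreated siACL (-0.52 ± 0.033, adjusted p = 7.3e-10). The sterol demethylase CYP51A1 (-0.41 ± 0.044) and the sterol sensor INSIG1 (-0.34 ± 0.041) fell. Among the rises were MYLIP, an LDL receptor ligase (0.62 ± 0.026), and the exporter ABCG1 (0.56 ± 0.11). PMVK (0.27 ± 0.044) and TM7SF2 (0.26 ± 0.026) of the synthesis pathway rose too.

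In the fatty acid and triglyceride synthesis list 6 of 23 measured genes rose and 9 fell (median difference -0.075). FASN, fatty acid synthase, scored 1.79, 1.79 and 1.80 in siACL at 5 mM, against 2.23, 2.36 and 2.26 in untreated siACL (-0.49 ± 0.04, adjusted p = 1.5e-08). SCD, stearoyl-CoA desaturase, scored 1.87, 1.82 and 1.83 in siACL at 5 mM, against 2.32, 2.29 and 2.32 in untreated siACL (-0.47 ± 0.03), and the elongase ELOVL6 fell by 0.63 ± 0.024. ELOVL5 (0.33 ± 0.036), the mitochondrial acetyl-CoA carboxylase ACACB (0.33 ± 0.04) and GPAM (0.28 ± 0.032) rose. Genes of monocarboxylate transport and fatty acid oxidation, for long-chain fatty acids as well as for butyrate, had 15 rises and 8 falls among 30 (median difference 0.13). ACADVL (0.37 ± 0.029) and CPT2 (0.29 ± 0.033), which act on long-chain acyl groups, and ACADSB, which acts on short branched ones (0.73 ± 0.14), rose. SLC16A1, the MCT1 transporter of butyrate, lay low in the array and did not pass (0.18 ± 0.40, adjusted p = 0.77), and its relative SLC16A14 fell (-1.63 ± 0.19). Glucose uptake and glycolysis genes split, 10 higher and 13 lower among 28: the transporters SLC2A3, given above, and SLC2A1 (0.30 ± 0.023) rose, and GPI (-0.45 ± 0.032), HK2 (-0.41 ± 0.04) and PFKL (-0.28 ± 0.028) fell.

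In the unfolded protein and integrated stress response list 6 of 30 rose and 15 fell (median difference -0.12), and named members of different branches went opposite ways. ATF4, the transcription factor of the amino acid response, scored 1.65, 1.65 and 1.66 in siACL at 5 mM, against 1.93, 1.93 and 1.89 in untreated siACL (-0.27 ± 0.018, adjusted p = 1.1e-09). Among known targets of ATF4, DDIT4, an inhibitor of mTORC1, scored 1.02, 1.00 and 1.06 in siACL at 5 mM, against 1.79, 1.81 and 1.81 in untreated siACL (-0.78 ± 0.031, adjusted p = 2e-12), and TRIB3, a pseudokinase, 0.67, 0.71 and 0.64 in siACL at 5 mM, against 1.36, 1.39 and 1.39 in untreated siACL (-0.71 ± 0.035), both falls. SLC7A11, described above, is another such target, as is CHAC1, a glutathione-degrading enzyme, which scored -1.17, -2.16 and -1.91 in siACL at 5 mM, against -0.24, -0.26 and -0.68 in untreated siACL (-1.36 ± 0.31, adjusted p = 0.0014). The rises included the endoplasmic reticulum genes HSPA5, which encodes the chaperone BiP (0.14 ± 0.023), SDF2L1 (0.17 ± 0.021), CRELD2 (0.16 ± 0.023) and PDIA4 (0.13 ± 0.04).

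MHC class I molecules present peptides to cytotoxic T cells and class II molecules to helper T cells. In the list of both classes and their loading genes 14 of 26 measured genes rose and 6 fell (median difference 0.26). Fewer of its measured members are class II genes than rose, so other members rose as well, and these are not named here. Besides HLA-DPA1, the class II genes HLA-DMB, whose product loads peptides (0.98, 0.96 and 1.01 in siACL at 5 mM, against 0.14, 0.20 and 0.092 in untreated siACL, 0.84 ± 0.034), HLA-DRA (0.69 ± 0.026) and HLA-DRB4 (0.99 ± 0.11) rose. The class I peptide loading genes TAPBP, tapasin (-0.52, -0.36 and -0.49 in siACL at 5 mM, against 0.51, 0.54 and 0.53 in untreated siACL, -0.99 ± 0.11), TAP2 (-0.54 ± 0.062) and TAP1 (-0.33 ± 0.025) fell, as did the immunoproteasome subunit PSMB10 (-0.30 ± 0.033). Interferon-stimulated genes counted 7 rises, IFI6 (0.69 ± 0.025) and BST2 (0.94 ± 0.16) among them, and 9 falls, IFI35 (-0.44 ± 0.051) and PARP9 (-0.62 ± 0.10) among them, of 26 measured. That is 26.9% and 34.6%, where 22.7% and 22.6% of all genes rose and fell.

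Among signalling targets, 21 of 32 immediate early and MAPK feedback genes rose and 4 fell (median difference 0.19). JUN, an AP-1 subunit, scored 1.54, 1.58 and 1.58 in siACL at 5 mM, against 0.66, 0.56 and 0.54 in untreated siACL (0.98 ± 0.031, adjusted p = 1.1e-13). EGR2 scored 0.69, 0.61 and 0.73 in siACL at 5 mM, against -0.48, -0.30 and -0.54 in untreated siACL (1.11 ± 0.089) and FOS rose by 0.39 ± 0.024. FOSL1, an AP-1 subunit that depends on sustained ERK activity, scored 0.22, 0.28 and 0.32 in siACL at 5 mM, against 0.85, 0.80 and 0.88 in untreated siACL and fell (-0.57 ± 0.056), as did PHLDA1 (-0.55 ± 0.025). In the Wnt target and crypt list 14 of 24 measured genes rose and 6 fell (median difference 0.23). HCT116 carries activated beta-catenin, and the negative feedback genes NKD1 (0.40, 0.38 and 0.41 in siACL at 5 mM, against -1.59, -2.21 and -1.87 in untreated siACL, 2.29 ± 0.20) and AXIN2 (0.46 ± 0.036) rose, with SP5 (2.12 ± 0.30) and the crypt receptor EPHB3 (1.75 ± 0.19). PROM1 (-0.42 ± 0.047) and CD44 (-0.25 ± 0.03) fell.

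In the BMP, TGF-beta and ID list 11 of 23 measured genes rose and 3 fell (median difference 0.17). The ligand BMP6 scored 0.55, 0.59 and 0.55 in siACL at 5 mM, against -0.84, -1.19 and -1.10 in untreated siACL (1.60 ± 0.076) and the inhibitory SMAD gene SMAD7 0.54, 0.49 and 0.47 in siACL at 5 mM, against -0.64, -0.82 and -0.58 in untreated siACL (1.18 ± 0.051). ID2, a helix-loop-helix inhibitor, rose by 0.78 ± 0.033, while the signal transducer SMAD3 fell by 0.42 ± 0.043. Kruppel-like factors counted 6 rises and 2 falls among 11, with KLF2 higher (0.34 ± 0.024). The MYC network had 3 of each direction among 12, 25% each, where 22.7% and 22.6% of all genes rose and fell. MYC itself scored 1.70, 1.69 and 1.67 in siACL at 5 mM, against 1.82, 1.83 and 1.82 in untreated siACL (-0.14 ± 0.025, adjusted p = 0.00015). In the hypoxia list 9 genes rose and 9 fell among 22, EGLN3 (1.76 ± 0.26) and AK3L1 (AK4, -0.47 ± 0.025) being examples.

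Of 24 absorptive enterocyte genes 7 rose and 2 fell, 29.2% and 8.33%, where 22.7% and 22.6% of all genes did. Their median difference was -0.020, and 12 of the 24 had a difference above 0. ALPI, intestinal alkaline phosphatase and a usual marker of butyrate-treated colon lines, did not pass (-0.06 ± 0.27, adjusted p = 0.89). CEACAM6 (-0.0074, -0.24 and -0.39 in siACL at 5 mM, against -2.08, -2.34 and -2.64 in untreated siACL, 2.14 ± 0.32) and the water channel AQP3 (1.38 ± 0.34) rose. Goblet, mucin and trefoil genes counted 3 rises and 3 falls among 21, 14.3% each. MUC1 scored -1.26, -1.58 and -1.54 in siACL at 5 mM, against -0.13, -0.035 and -0.10 in untreated siACL (-1.37 ± 0.15), and MUC2 did not pass (0.50 ± 0.39, adjusted p = 0.34). In the enteroendocrine and secretory granule list 11 of 24 measured genes rose and 2 fell (median difference 0.28). GAST, which encodes gastrin, scored 0.14, 0.15 and 0.20 in siACL at 5 mM, against -2.46, -3.03 and -2.87 in untreated siACL (2.95 ± 0.22, adjusted p = 5.7e-09), and the synaptic vesicle protein SYP 0.062, 0.13 and 0.088 in siACL at 5 mM, against -2.78, -2.32 and -2.87 in untreated siACL (2.75 ± 0.22), while SCG5 fell (-1.75 ± 0.29) and CHGA, chromogranin A, did not pass (0.28 ± 0.14, adjusted p = 0.13).

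Some genes foreign to the colon rose. Neuronal and synaptic genes counted 13 rises and 6 falls among 34, 38.2% and 17.6%, where 22.7% and 22.6% of all genes rose and fell. Their median difference was 0.031, and 19 of the 34 had a difference above 0. CNTNAP2, a neurexin-family adhesion gene, scored 1.10, 1.15 and 1.10 in siACL at 5 mM, against -1.45, -0.86 and -1.57 in untreated siACL (2.41 ± 0.12, adjusted p = 3.3e-11). STMN2, a microtubule regulator, scored 0.90, 0.97 and 0.93 in siACL at 5 mM, against -0.75, -0.83 and -0.82 in untreated siACL (1.74 ± 0.15), and RUNDC3A rose by 2.78 ± 0.19. Of 14 cancer-testis genes 6 rose, or 42.9%, with SPANXA1 (2.71 ± 0.21) beside PAGE4, and 7 of the 14 had a difference above 0. The keratins KRT86 (2.32 ± 0.20) and KRT80 (0.34 ± 0.067) rose and KRT7 (-1.62 ± 0.24) and KRT13 (-1.41 ± 0.21) fell. Of the 6 measured cystatins CST1 and CST3 (0.10 ± 0.023) rose and CST6 (-0.50 ± 0.037) and CSTB (-0.19 ± 0.018) fell, while CST4 (0.25 ± 0.25, adjusted p = 0.47) and CST7 (-0.17 ± 0.10, adjusted p = 0.19) did not pass.

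Junction genes fell somewhat more often than they rose, 15 and 11 of 38. The tight junction gene MARVELD3 scored -0.70, -0.68 and -0.95 in siACL at 5 mM, against 0.26, 0.25 and 0.22 in untreated siACL (-1.02 ± 0.13) and fell, as did the desmosomal PKP3 (-0.99 ± 0.085), against rises of CLDN1 and CLDN23 (0.54 ± 0.031). E-cadherin, CDH1, rose by 0.12 ± 0.031. Genes of the epithelial-mesenchymal transition were balanced at 10 rises and 10 falls of 27. The repressors SNAI2 (0.11, 0.038 and 0.11 in siACL at 5 mM, against -1.48, -1.76 and -1.13 in untreated siACL, 1.54 ± 0.15) and SNAI1 (1.87 ± 0.32) and the gelatinase MMP9 (1.73 ± 0.14) rose, the receptor kinase AXL (-0.95 ± 0.054), matrilysin MMP7 (-1.19 ± 0.20) and the epithelial factor GRHL2 (-0.86 ± 0.16) fell, and vimentin, VIM, did not pass (0.069 ± 0.046, adjusted p = 0.25). S100 proteins and annexins fell, 14 of 18 with 3 rises (median difference -0.25). ANXA10 scored -0.999, -1.28 and -1.01 in siACL at 5 mM, against 0.56, 0.58 and 0.54 in untreated siACL (-1.65 ± 0.21), and ANXA5 was among the rises (0.36 ± 0.022). Among actin genes 16 rose and 10 fell of 38, with RHOB (0.49 ± 0.024) higher and tropomyosin TPM2 (-0.47 ± 0.019) lower.

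Of 10 measured markers of colon epithelium 1 rose and 3 fell, with list means of 0.40 to 0.55 in siACL at 5 mM and 0.58 to 0.62 in untreated siACL. The median of the members' mean scores over all arrays was 0.44. KRT19, KRT8 and EPCAM were strongly expressed in both groups. KRT19 scored 2.29, 2.28 and 2.18 in siACL at 5 mM, against 2.15, 2.16 and 2.19 in untreated siACL, and KRT8 1.96, 1.95 and 1.94 in siACL at 5 mM, against 1.82, 1.88 and 1.92 in untreated siACL, while EPCAM scored 1.53, 1.45 and 1.44 in siACL at 5 mM, against 1.86, 1.87 and 1.92 in untreated siACL and fell (-0.41 ± 0.036). KRT20 and CDH17, markers of mature colon epithelium, were low in both groups (-0.90 ± 0.24 and -1.77 ± 0.32 in siACL at 5 mM, -0.58 ± 0.28 and -1.46 ± 0.42 in untreated siACL) and did not pass. Of 3 measured leukocyte markers 1 rose, LYZ fell (-0.57 ± 0.20) and CD68 did not pass (adjusted p = 0.069), and the list's mean score ran over -0.45 to -0.35 in siACL at 5 mM and -1.22 to -1.05 in untreated siACL. Of 3 fibroblast markers COL1A1 rose (0.52 ± 0.034), with list means of -0.95 to -0.54 in siACL at 5 mM and -1.23 to -0.62 in untreated siACL. Of 3 endothelial markers VWF rose (1.54 ± 0.48), with list means of -1.49 to -1.10 in siACL at 5 mM and -2.34 to -1.72 in untreated siACL. Their part in the other results was not tested.

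The same dose was next set beside its effect in siMock, whose arrays are not shared with the siACL comparison. In siMock 9237 genes changed at 5 mM (50.8%), 4655 higher (25.6%) and 4582 lower (25.2%), and 6921 genes changed in both arms. Across the 18172 genes, which are not independent replicates, the changes in the 2 arms correlated at r = 0.758 with a slope of siACL on siMock of 0.67. The difference between the arms was tested as the siACL change minus the siMock change. It passed for 1608 genes (8.85%), positive in 999 (5.5%) and negative in 609 (3.35%). Of the 8222 genes that changed in siACL, 1204 also differed between the arms: 797 moved the same way by less in siACL, 236 moved the same way by more, and 171 had opposite signs. Of the differences between the arms described next, those of KRT18P44, LRRC26, MT2A, MXRA8, NT5M, PRTFDC1, SLC30A1, TSPYL4 and ZBED2 did not pass when at least 1 of the 12 arrays was left out.

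**Figure D3:**
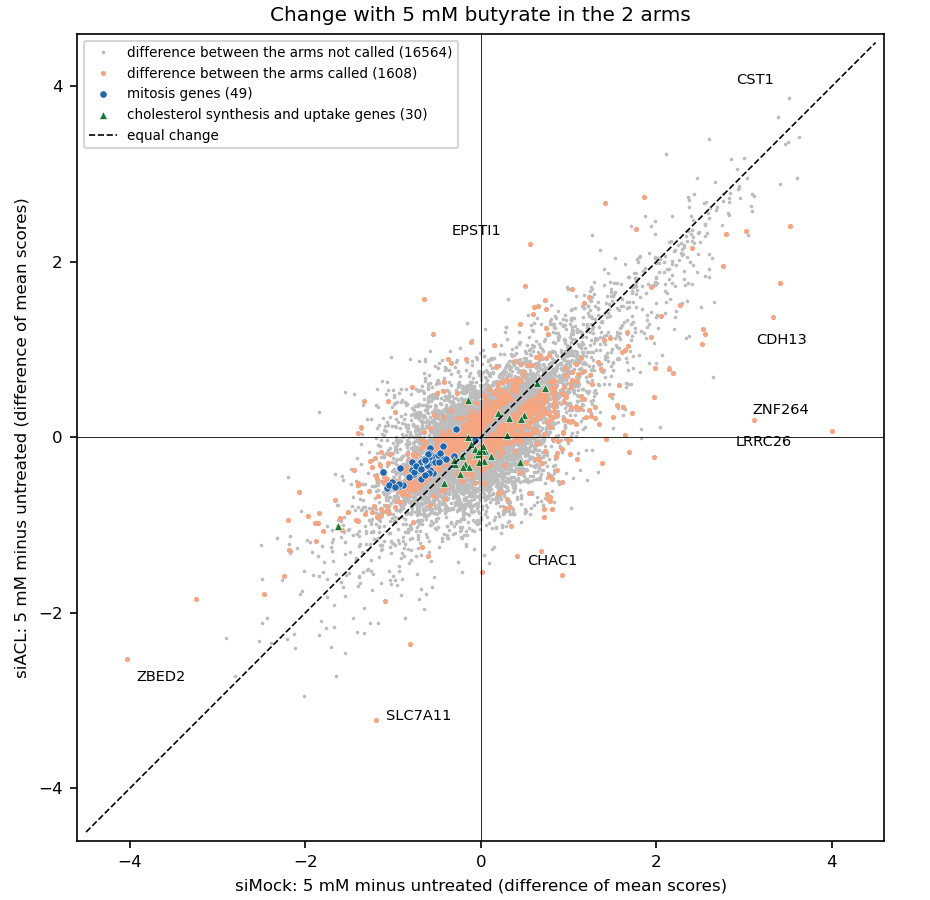
Difference of mean scores between 5 mM butyrate and untreated cells in siACL (vertical) and siMock (horizontal) for 18172 genes, with the 1608 genes whose difference between the arms passed in orange, mitosis genes as blue circles, cholesterol genes as green triangles and a dashed line of equal change. Mitosis genes lie above the line with falls in both arms, and ZNF264 lies far right of it with almost no change in siACL.

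Mitosis genes fell in both arms and fell less in siACL. The median difference was -0.29 in siACL and -0.63 in siMock, and the difference between the arms passed for 43 of 49 genes, positive in all of them, where 5.5% of all genes had a positive difference. The list's mean score was 0.81, 0.80 and 0.79 in siACL at 5 mM and 1.12, 1.11 and 1.12 in untreated siACL, against 0.49, 0.47 and 0.47 in siMock at 5 mM and 1.15, 1.14 and 1.13 in untreated siMock. The arms therefore started from nearly the same level and parted under butyrate. For HMMR the siACL change exceeded the siMock change by 0.41 ± 0.034 (adjusted p = 8.3e-07), for KIF20A by 0.50 ± 0.046 and for CCNB1 by 0.34 ± 0.062. DNA replication (19 of 43), DNA repair (11 of 34) and G1 genes (8 of 17) also had positive differences. RRM2, which rose in siACL, fell in siMock (-0.27 ± 0.047), a difference of 0.49 ± 0.067 (adjusted p = 0.00013). Ribosome biogenesis genes fell alike in size, with medians of -0.21 in siACL and -0.20 in siMock and 1 gene past the test of the difference, and lysosome medians were 0.21 and 0.21.

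**Figure D4:**
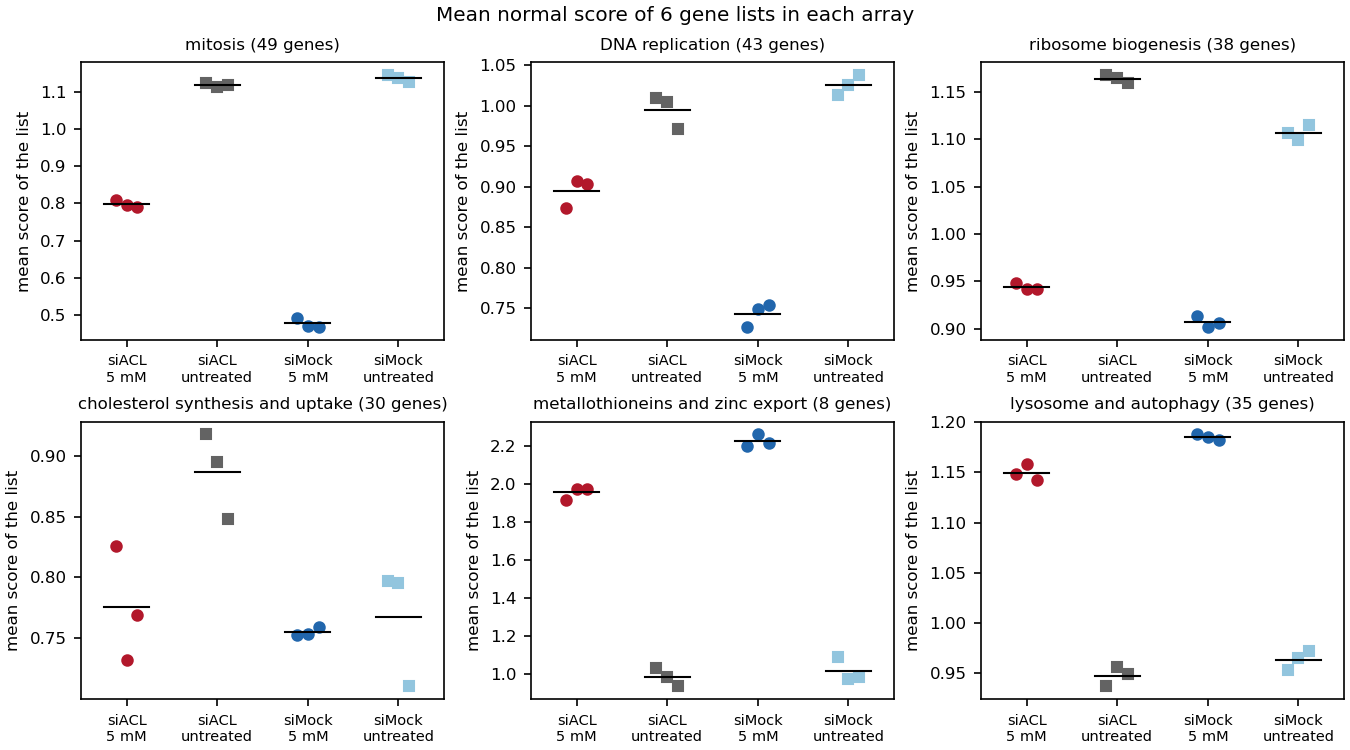
Mean normal score of the measured genes of 6 lists in each array, for siACL at 5 mM, untreated siACL, siMock at 5 mM and untreated siMock, with black bars at the mean of the 3 arrays; the vertical axes differ between panels and do not start at 0. Mitosis genes lie at 0.79 to 0.81 in siACL at 5 mM, against 0.47 to 0.49 in siMock at 5 mM.

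Cholesterol genes leaned the other way. Their median difference was -0.18 in siACL and -0.027 in siMock, and 10 of 30 genes had a negative difference between the arms and 2 a positive one, where 3.35% and 5.5% of all genes did. Named after their values were seen, HMGCS1 (-0.21 ± 0.029 in siACL, 0.12 ± 0.029 in siMock), IDI1 (-0.27 ± 0.038 in siACL, 0.032 ± 0.038 in siMock) and SC4MOL (MSMO1, -0.28 ± 0.036 in siACL, -0.023 ± 0.036 in siMock) had negative differences between the arms that passed. Untreated siACL arrays already stood above untreated siMock arrays for this list, by a median of 0.12, and at 5 mM the list means overlapped: 0.83, 0.73 and 0.77 in siACL and 0.75, 0.75 and 0.76 in siMock.

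Several stress response genes also started higher in siACL. Of 30 genes 8 had a negative difference between the arms and 3 a positive one, where 3.35% and 5.5% of all genes did. The negative ones included SLC7A11 (-2.03 ± 0.35, adjusted p = 0.0013), CHAC1 (-1.76 ± 0.44, adjusted p = 0.016), TRIB3 (-0.30 ± 0.05) and DDIT4 (-0.20 ± 0.044). SLC7A11 scored -3.75 ± 0.14 in siACL at 5 mM and -0.52 ± 0.081 in untreated siACL, against -3.30 ± 0.16 in siMock at 5 mM and -2.10 ± 0.57 in untreated siMock. CHAC1 scored -1.75 ± 0.51 in siACL at 5 mM and -0.39 ± 0.25 in untreated siACL, against -1.63 ± 0.50 in siMock at 5 mM and -2.04 ± 0.19 in untreated siMock. For TRIB3 the 4 means were 0.67 ± 0.039 and 1.38 ± 0.018 in siACL with and without butyrate and 0.68 ± 0.064 and 1.08 ± 0.021 in siMock with and without it. In each of the 3 genes untreated siACL had the highest mean of the 4 groups.

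Several histone genes rose less in siACL. Among histones 8 of 23 had a negative difference between the arms and 4 a positive one, where 3.35% and 5.5% of all genes did. HIST1H2BD rose by 0.61 ± 0.02 in siACL and 1.26 ± 0.02 in siMock (difference -0.65 ± 0.029, adjusted p = 6.3e-10), and HIST1H1C by 0.38 ± 0.036 in siACL and 0.83 ± 0.036 in siMock. Named after their values were seen, HIST2H2AA3 (0.16 ± 0.042 in siACL, 1.08 ± 0.042 in siMock) and HIST1H2AC (0.27 ± 0.14 in siACL with adjusted p = 0.12, 1.73 ± 0.14 in siMock) showed a wider gap. For metallothioneins the direction depended on the scale. On the score scale the differences of MT2A (-0.46 ± 0.13, adjusted p = 0.03), MT1X (-0.34 ± 0.04, adjusted p = 3.4e-05) and MT1G (-0.23 ± 0.04) were negative and that of SLC30A1 positive (0.12 ± 0.034, adjusted p = 0.042), but on percentile ranks 3 of the 8 genes had a positive difference that passed and none a negative one, with MT2A at 0.371 and MT1X at 1.76 percentile points.

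The widest single differences between the arms included genes that butyrate hardly moved in siACL. ZNF264, a zinc finger gene, scored 0.17, 0.22 and 0.20 in siACL at 5 mM, against 0.11, 0.21 and 0.067 in untreated siACL, and did not pass (0.067 ± 0.17, adjusted p = 0.8), while in siMock it scored 0.31 ± 0.37 at 5 mM and -3.69 ± 0.18 untreated (difference between the arms -3.93 ± 0.24, adjusted p = 3.1e-08). LRRC26 had the same form, with a wide spread in untreated siMock: 0.75 ± 0.057 and 0.55 ± 0.018 in siACL with and without butyrate and 0.69 ± 0.046 and -2.42 ± 2.18 in siMock (-2.91 ± 0.87, adjusted p = 0.045). CDH13, an atypical cadherin, rose in both arms, to percentile 1.54 in siACL and percentile 51 in siMock (-1.97 ± 0.22, adjusted p = 2.2e-05). EMR4P (ADGRE4P, -2.50 ± 0.52) fell in siACL and rose in siMock, while TSPYL4 (-2.19 ± 0.55) and TMEM178 (TMEM178A, -1.86 ± 0.36) rose in siMock and did not pass in siACL. On the positive side EPSTI1, an interferon-responsive gene, scored -0.15, -0.58 and -0.63 in siACL at 5 mM, against -2.95, -2.51 and -2.53 in untreated siACL (2.21 ± 0.20), and changed less in siMock (0.56 ± 0.20, difference 1.64 ± 0.28, adjusted p = 0.0011). ZBED2 (1.50 ± 0.39), ABHD14B (1.46 ± 0.17) and SNCG, gamma-synuclein (1.40 ± 0.28), fell in both arms and, on the score scale, less in siACL, while on percentile ranks the differences of ZBED2 and SNCG were -1.58 and -1.63 percentile points and did not pass. MXRA8 (1.72 ± 0.51) and PRTFDC1 (1.27 ± 0.37), and NT5M (1.44 ± 0.41) and the keratin pseudogene KRT18P44 (1.74 ± 0.48) had positive differences too, the first pair with a rise in siACL, the others with a fall in siMock.

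The 5 mM response in siACL was also set in the course of doses, all of which share the untreated arrays. The median difference of mitosis genes from untreated siACL was -0.07, -0.0082 and -0.29 at 0.5, 2 and 5 mM. Ribosome biogenesis medians were -0.00016, -0.13 and -0.21, and metallothionein medians 0.11, 0.57 and 1.07. Cholesterol gene medians were 0.049, 0.067 and -0.18, positive at the lower doses and negative at 5 mM. HMMR had mean scores of 1.38, 1.29, 1.26 and 0.81 at 0, 0.5, 2 and 5 mM in siACL and 1.35, 1.38, 1.15 and 0.37 in siMock. CST1 had -3.47, -3.31, -0.28 and 0.40 in siACL and -2.94, -2.49, 0.27 and 0.57 in siMock. DHRS2 had -0.048, 0.55, 1.66 and 2.11 in siACL and -0.19, 1.23, 2.11 and 2.21 in siMock, with the siMock mean above the siACL mean at each dose of butyrate. ZBED2 had 0.67, 0.61, 0.51 and -1.86 in siACL and 0.50, 0.093, -2.95 and -3.53 in siMock.

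**Figure D5:**
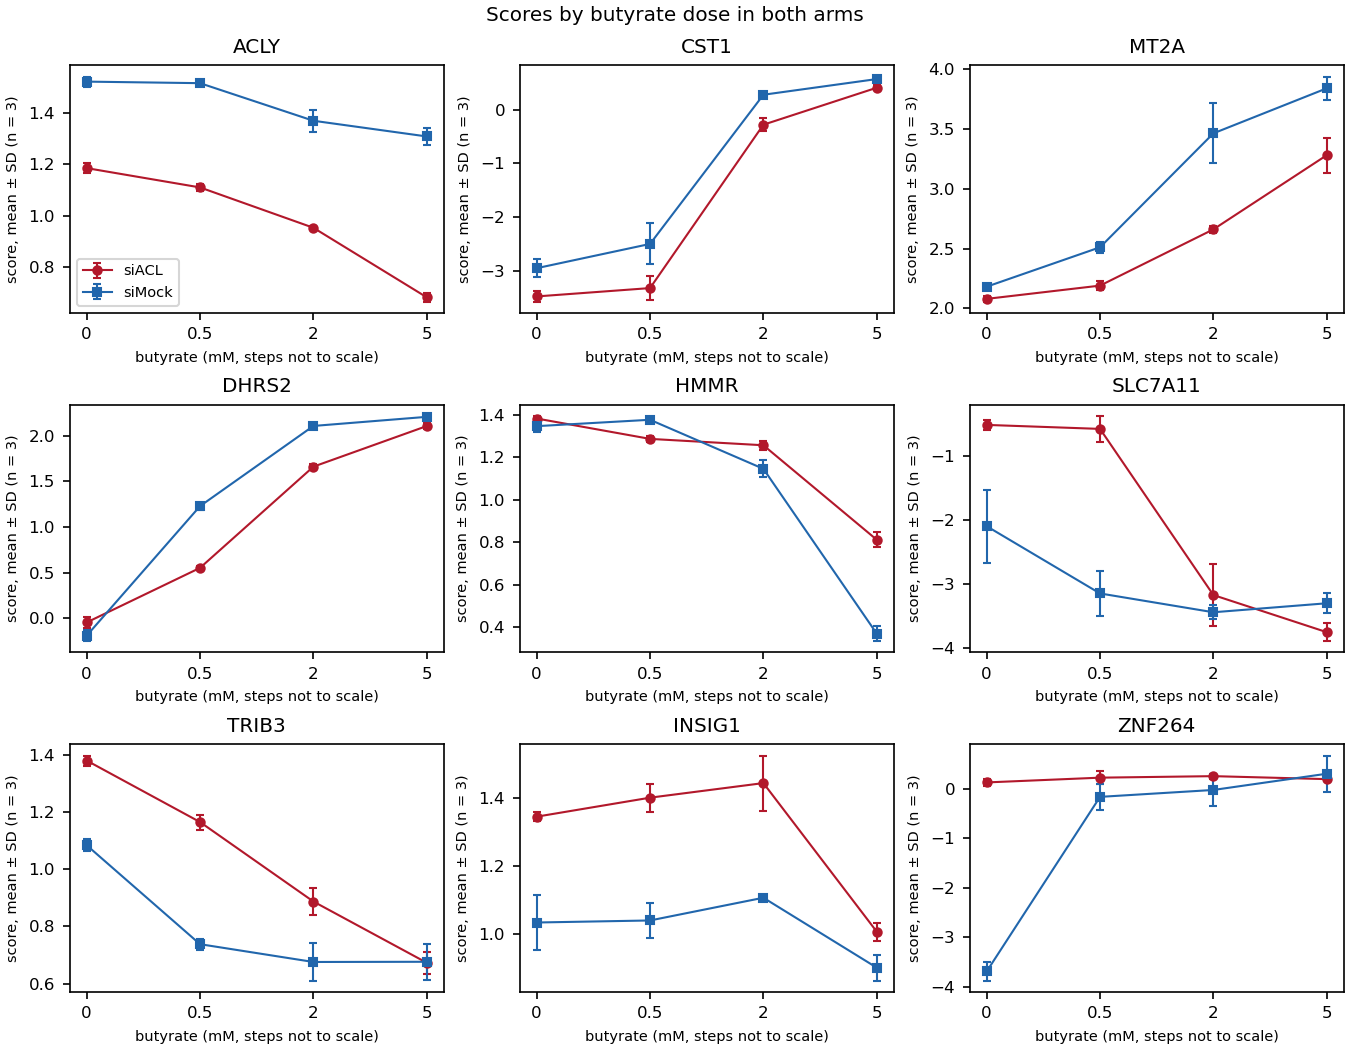
Mean normal score ± SD (n = 3 arrays) of 9 genes at 0, 0.5, 2 and 5 mM butyrate in siACL (red circles) and siMock (blue squares); the dose steps are drawn evenly and the vertical axes differ. In siACL the HMMR mean is slightly below its untreated score at 0.5 and 2 mM and far below it at 5 mM. SLC7A11 falls between 0.5 and 2 mM in siACL, and ZNF264 is low in untreated siMock alone.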

How the data were processed

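RNA of HCT116 cells in 8 groups of 3 arrays was labelled and hybridised to Illumina arrays, per the labels' protocols. The table used is the authors' deposited value table of 20747 entries. The authors had turned each array's values into ranks and then into a normal score before they deposited the table: tested on the deposited file, every value lay within 0.000914646 of the normal quantile of its rank. The sources used here do not give the background correction or normalization before that. Gene names come from other text annotation columns that the authors deposited with 48 scanner columns; those columns could be tied to no sample and were not used, so detection is unknown. Of 18172 entries with a symbol, 12255 matched RefSeq by accession, 973 by symbol alone, and 4944 kept the array's name. Intensity was not used, and the number of arrays limits the precision.

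Groups follow the labels. limma 3.58.1 in R 4.3.3 fitted a mean per group over 24 arrays, with eBayes and Benjamini-Hochberg adjustment over the 18172 entries, and was tested on simulated data. Where a list gene had several entries, the entry used is that of the current or listed symbol. Genes were named from the 10 widest rises and falls among genes whose groups did not overlap, the same among mean scores above 0.5, the 8 widest differences between the arms of each sign, up to 4 rises and falls per list, key genes and short lists. Some genes that this rule selects are not reported here. The members and lists were chosen with earlier results of these data known. Alternatives were the arrays fitted, the variance prior, array weights, a replicate block, percentile ranks, filters, thresholds and leaving out each array.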

Additional observations from a re-analysis of the deposited data

Results flagged for a closer look

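Of the genes named in the report, 90 had a butyrate response at 5 mM that differed between siACL and siMock by the test of the difference itself. Each value below is the siACL change minus the siMock change on the score scale, with 3 arrays in each of the 4 groups, and each had an adjusted p under 0.05 in limma. A positive value means that the siACL change lay above the siMock change, whichever way the gene moved. ACLY, the target of the knockdown, had -0.289.

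Among cell cycle genes the differences were HMMR (0.407), KIF20A (0.501), CCNB1 (0.342), CCNA2 (0.363), SPC24 (0.378) and CENPA (0.419) for mitosis and the centromere. They were RRM2 (0.491), DUT (0.318), TYMS (0.311), POLE2 (0.28) and MCM2 (0.151) for DNA replication, FANCG (0.223) and UNG (0.206) for DNA repair and CKS1B (0.329), SKP2 (0.171) and CCND3 (0.167) for G1. All of these were positive. CDKN2A also had a positive difference (0.944), as did the apoptosis gene BID (0.268), while CYCS (-0.509), MXD4 (-0.188) and MYC (-0.115) had negative ones.

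Among metabolic genes the differences were HMGCS1 (-0.334), IDI1 (-0.301), SC4MOL (-0.26), TM7SF2 (-0.236) and INSIG1 (-0.205) for cholesterol. They were ACSS2 (-0.141) and SLC25A1 (0.15) for acetyl-CoA supply and SLC2A1 (0.174) and AK3L1 (0.225) for glucose uptake and hypoxia. In the stress response list they were SLC7A11 (-2.03), CHAC1 (-1.76), TRIB3 (-0.299), DDIT4 (-0.202), ATF4 (-0.0925) and PDIA4 (0.225). In the NRF2 and glutathione list they were ABCC2 (1.25) and NQO1 (0.201). Translation genes had MRPL11 (0.216) and RARS (-0.104), and lysosome genes NEU1 (-0.395), ATG7 (-0.207) and CTSB (0.213).

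Histone genes had differences of HIST1H2AC (-1.45), HIST2H2AA3 (-0.929), HIST1H2BD (-0.654), HIST1H1C (-0.455) and H2AFY2 (0.292). Metal-responsive genes had MT2A (-0.459), MT1X (-0.338), MT1G (-0.233) and SLC30A1 (0.117). Among signalling and secretory genes the values were SMAD7 (0.414), BMP6 (0.366), AXIN2 (0.244), CD44 (0.354), PHLDA1 (0.207), KLF2 (-0.326), RHOB (-0.221), VGF (-0.223) and CST6 (0.183). Among adhesion, keratin, annexin and membrane genes they were AXL (0.448), KRT80 (-0.744), ANXA3 (0.276), ANXA5 (0.151), TPM2 (0.248), SCNN1A (0.901), ANO1 (0.247), TMEM16A (0.391), NTSR1 (0.187) and PLAU (-0.188). Of the rises among genes with a mean score above 0.5, differences were found in ZCCHC12 (0.611), CRISPLD2 (-0.294) and DHRS2 (-0.247), and CNTNAP2 had -1.11.

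The 8 widest negative differences under the naming rule were ZNF264 (-3.93), LRRC26 (-2.91), EMR4P (-2.50), TSPYL4 (-2.19), SLC7A11 (-2.03), CDH13 (-1.96), TMEM178 (-1.86) and CHAC1 (-1.76). The 8 widest positive ones were KRT18P44 (1.74), MXRA8 (1.72), EPSTI1 (1.64), ZBED2 (1.50), ABHD14B (1.46), NT5M (1.44), SNCG (1.40) and PRTFDC1 (1.27). Groups of 3 arrays were not tested for outlying values of single genes.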

How the results depend on the processing

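The count for siACL at 5 mM against untreated siACL lay between 6592 and 8887 genes under 8 alternatives and between 7447 and 7608 with an array left out. It was 4163 where a difference of at least 0.25 was also required, which admits fewer genes by construction, and likewise 5390 for siMock at 5 mM against untreated siMock, where an array left out gave 8673 to 8736. The siACL change minus the siMock change passed for 1024 genes in a fit of only the 12 arrays concerned, 800 at adjusted p under 0.01 and 597 with a difference of at least 0.25, and for 1295 to 1441 with an array left out. The first of these rests on fewer arrays, the others on stricter thresholds. ACLY passed under every alternative run, in both comparisons, with differences of -0.49 to -0.511 for butyrate and -0.33 to -0.348 for the knockdown in untreated cells when an array was left out.

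Between treated and untreated siACL, deviations of same-numbered replicates from their group means correlated at r = 0.000946, -0.000461 and 0.0225. The highest r between arrays of different number was 0.00892, 0.0141 and -0.00813. Such small values give no sign of a strong link by replicate number in these groups. They cannot show that same-numbered arrays shared no batch, and they do not cover the other groups. With the replicate number as a replicate block 8164 genes passed for siACL, 9238 for siMock and 1555 for the difference between the arms, against 8222, 9237 and 1608 without it.

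Of 267 genes named besides ACLY, 243 passed in siACL. Of these 19 lost their call under at least 1 alternative, 9 of them when an array was left out, and none changed sign. Without untreated replicate 2 the adjusted p of ATG7 was 0.0502, and without 5 mM replicate 1 it was 0.0743. CD63 lay at 0.0815 to 0.245 without untreated replicates 2 or 3 or 5 mM replicates 1 or 3. LYZ lay at 0.0563 to 0.132 without untreated replicates 1 or 3 or 5 mM replicate 1, and PRTFDC1 at 0.0552 without untreated replicate 3. FAS lay at 0.0541 without 5 mM replicate 3, PPARGC1A at 0.0525 without untreated replicate 1, and HDAC7 at 0.0584 and 0.0797 without untreated replicate 1 or 5 mM replicate 2. PDIA4 lay at 0.0782 and 0.0556 without untreated or 5 mM replicate 3. PDK4 lay at 0.0641 to 0.163 without untreated replicate 1 or 5 mM replicates 1 or 2.

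Of 90 named differences between the arms, 33 lost their call or changed sign under at least 1 alternative, 20 of them when an array was left out. LRRC26 (0.0745 to 0.114), MXRA8 (0.0503 to 0.108) and MYC (0.066 to 0.114) lost theirs without any of 11 of the 12 arrays. SLC30A1 (0.0537 to 0.107), BMP6 (0.0525 to 0.111) and CTSB (0.0569 to 0.105) did so without any of 10, CST6 (0.0544 to 0.0959), INSIG1 (0.0539 to 0.0897) and RARS (0.0557 to 0.109) without any of 9, and MT2A (0.0505 to 0.0803) and MCM2 (0.059 to 0.0875) without any of 8. PRTFDC1 (0.0643 to 0.107) and VGF (0.0644 to 0.1) did so without any of 7, ATF4 (0.0528 to 0.0683), KRT18P44 (0.0552 to 0.0818) and SLC25A1 (0.0512 to 0.06) without any of 6, and NT5M (0.0628 to 0.0836) without any of 5. ZBED2 had 0.0538 and 0.0607 without 5 mM replicate 1 of either arm, PDIA4 lost its call without any of 2 (0.0525 to 0.054), and TSPYL4 had 0.0512 without untreated siACL replicate 1.

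On percentile ranks 5 of the 90 had the other sign. In percentile points they were 1.76 for MT1X, 0.371 for MT2A, -1.63 for SNCG, 4.04 for VGF and -1.58 for ZBED2. The sign was also the other one for 6 named genes whose difference between the arms passed on percentile ranks and not on scores, at -9.63 for DKK4, -20.8 for GCNT3, 12.7 for KRT86, -19.3 for MMP7, 2.96 for MT1F and -15.2 for MUC1. The score stretches both ends of the array, by construction, and the cause was not tested further. Among 49 mitosis genes 46 had a positive difference between the arms that passed on percentile ranks, against 43 on scores. Among 30 cholesterol genes 10 had a negative one on either scale.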

Other observations

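Among genes with more than 1 entry, the entries did not always move by the same amount in siACL at 5 mM against untreated siACL. The kinetochore gene NUF2 had a difference of -0.376 in the entry under its own name and -1.22 in the entry under the older name CDCA1, which lay lower in the array. SPANXA1 and SPANXA2, entries of near-identical cancer-testis genes, had 2.71 and 1.72. Between the arms, 63 genes passed the test in both with opposite signs.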
